A study of Mus musculus with 9 samples.

Results

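NF-κB is a family of transcription factors that T cells use to answer antigen and costimulation. The genes described here encode its subunits (Rel, Rela, Relb, Nfkb1 and Nfkb2) and proteins that restrain or modulate it (Nfkbia, Nfkbib, Nfkbid, Nfkbie and Tnfaip3). They were chosen by name, as the probe sets whose symbol in the platform annotation is 1 of these 10. The choice was made with earlier results of these data known. That gave 17 probe sets for 9 of the 10 genes, out of 34945 probe sets for 18193 genes with a single symbol on the array. Nfkb1 was not analysed here. Each gene is represented by its probe set with the highest mean over the 9 arrays, and the others serve as a check.

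Mouse CD4 T cells of the C57BL/6 background were profiled on 9 Affymetrix whole-genome arrays, 3 biological replicates in each of 3 groups. Cells of pltTGFβ_iTreg were cultured with freeze-thaw lysate of wild type platelets as the source of TGFβ, the cytokine that turns naive T cells into induced regulatory T cells (iTreg), and the labels give no TGFβ dose for it. Cells of purTGFβ_iTreg received purified TGFβ1 at 5 ng/ml. Both iTreg groups started from spleen CD4+ cells of Foxp3EGFP mice that were sorted as EGFP-negative, so they carried the reporter of Foxp3, the factor that defines regulatory T cells. Both were stimulated for 72 hours through CD3 (plate-bound antibody, 2.5 µg/ml) and CD28 (antibody at 1 µg/ml), which themselves engage NF-κB, and were given IL2 at 100 U/ml. Tconv are conventional T cells. Their culture is not settled by the labels, because a note common to all samples has Tconv cells receiving TGFβ1.

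The values are log2 expression after Robust Multichip Analysis (RMA), so a difference of 1 is a factor of 2 and levels are compared within a probe set only. Xist read 3.94 ± 0.05 in pltTGFβ_iTreg and 3.61 ± 0.21 in purTGFβ_iTreg, against 10.81 ± 0.16 in Tconv (SD, n = 3 each). Y-linked Eif2s3y read 8.95 ± 0.07 and 9.01 ± 0.18 in the same iTreg groups, against 2.70 ± 0.11 in Tconv. The sex of the animals therefore cannot be told apart from either difference against Tconv, while the iTreg groups shared it. Foxp3 read 3.86 ± 0.04 in pltTGFβ_iTreg, 3.77 ± 0.08 in purTGFβ_iTreg and 3.79 ± 0.12 in Tconv, so these readings do not set the iTreg apart. They were low, near Xist in the iTreg groups, with 29.9%, 28.8% and 25.4% of gene means of the same group below them. Readings this low cannot show whether Foxp3 differed between the groups. Tgfb1 averaged 7.94, 8.02 and 9.06 and Cd3d, of the T cell receptor complex, 12.38, 12.37 and 12.80 in the same order. The platelet genes Pf4 and Ppbp stayed at or below 3.32 in all group means, and 0 of 7 platelet markers passed between the iTreg groups, with summed linear signals of 192.5 to 212.9 in pltTGFβ_iTreg and 195.7 to 216.7 in purTGFβ_iTreg, and 263.8 to 316.8 in Tconv. The 7 myeloid markers summed to 118.5 to 127.6 in pltTGFβ_iTreg, 111.6 to 131.3 in purTGFβ_iTreg and 135.1 to 162.3 in Tconv, and 0 passed in any comparison. The 4 CD8 or NK markers summed to 138.0 to 162.2, 218.5 to 273.4 and 153.8 to 178.0 in the same order, and 1 of them, Klrd1, was lower in pltTGFβ_iTreg than in purTGFβ_iTreg (-1.27). Against Tconv Klrd1 was higher and Cd8b1 lower in both iTreg groups. The 7 T cell markers summed to 14150 to 14350, 12900 to 13440 and 16370 to 17820, and 0 passed between the iTreg groups. Against Tconv Cd4 and Cd5 were lower in both iTreg groups, Cd247 was lower in purTGFβ_iTreg and Cd2 was higher in pltTGFβ_iTreg. Of the platelet markers Itga2b was lower than in Tconv in both iTreg groups, and Gp6 in pltTGFβ_iTreg. Among 6 B cell markers Cd79a, Ms4a1 and Pax5 read 4.24 or less in every group mean. In the order pltTGFβ_iTreg, purTGFβ_iTreg and Tconv, Cd79b averaged 4.37, 4.56 and 6.02 and was lower in both iTreg groups than in Tconv, Cd22 averaged 5.07, 5.05 and 5.47 and was not called, and Ighm averaged 10.98, 11.16 and 10.34 and was higher in both. Ighm makes up most of the B cell sums of 2072 to 2149, 2264 to 2542 and 1415 to 1492. The part of these differences in the results was not tested.

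NF-κB subunits bind DNA as pairs. In resting cells the pairs of Rel or Rela with p50 are held in the cytoplasm by the IκB proteins, until a kinase complex (IKK) marks the IκB for destruction. A second route, which runs through the kinase NIK, processes the Nfkb2 product p100 to p52 and frees pairs of p52 with RelB. Several of the brakes, among them IκBα and A20, are themselves induced by NF-κB, so their transcripts are used as readouts of the pathway. In T cells c-Rel is known for its part in Il2 and Foxp3 transcription. Since whole cultures were profiled, a change in the share of cells that express a gene and a change of its RNA per cell cannot be told apart.

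The promoters are shown as background, because NF-κB is known to act on several of these genes. Any part of the promoter letters in the changes reported below was not tested. RefSeq windows of the 250 bases before a transcript start (build GRCm38.p6) were matched by symbol for 8 of the 10 genes, 13 windows in all, with none for Relb and Nfkb1. The general κB consensus, which runs for 10 bases from GGG to CC and was searched on both strands with overlapping matches kept, occurred in 8 of the 13 windows and in 6 of the 8 genes. It occurred in 7.25% of all 32851 windows of that length. The windows of these genes had a median GC content of 59.2%, and all windows 52.4%; the part of base composition in the matches was not tested. Rela and Nfkbib had no match in their windows, which says only that these letters are not there. The AP-1 motif TGANTCA, searched on both strands, occurred in 3 of the 8 genes (Nfkb2, Nfkbie and Tnfaip3). It occurred in 6.75% of all windows. A count of genes and a share of windows are unlike measures, since some genes had several windows. The outermost windows of 4 genes follow, 5′ to 3′ on the gene's strand with κB matches in capitals. A match is a string of letters and not a measured binding site.
Rel, chr11:23770970-23771219, minus strand: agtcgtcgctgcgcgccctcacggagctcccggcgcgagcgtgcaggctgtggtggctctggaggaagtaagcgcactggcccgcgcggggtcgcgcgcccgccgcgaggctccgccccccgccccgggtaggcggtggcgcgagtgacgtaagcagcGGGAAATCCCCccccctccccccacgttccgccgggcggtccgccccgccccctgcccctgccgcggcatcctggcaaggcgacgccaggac
Tnfaip3, chr10:19015411-19015660, minus strand: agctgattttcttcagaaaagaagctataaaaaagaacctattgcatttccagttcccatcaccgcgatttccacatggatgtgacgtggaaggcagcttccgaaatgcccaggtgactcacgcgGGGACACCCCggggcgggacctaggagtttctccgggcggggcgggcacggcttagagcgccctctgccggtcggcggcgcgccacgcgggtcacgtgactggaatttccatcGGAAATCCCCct
Nfkbia, chr12:55492648-55492897, minus strand: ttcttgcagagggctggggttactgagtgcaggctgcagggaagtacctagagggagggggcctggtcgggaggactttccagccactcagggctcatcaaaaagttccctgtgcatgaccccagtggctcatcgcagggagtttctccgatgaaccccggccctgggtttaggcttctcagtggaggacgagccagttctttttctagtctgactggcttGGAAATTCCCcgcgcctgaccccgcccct
Nfkbie, chr17:45555450-45555699, plus strand: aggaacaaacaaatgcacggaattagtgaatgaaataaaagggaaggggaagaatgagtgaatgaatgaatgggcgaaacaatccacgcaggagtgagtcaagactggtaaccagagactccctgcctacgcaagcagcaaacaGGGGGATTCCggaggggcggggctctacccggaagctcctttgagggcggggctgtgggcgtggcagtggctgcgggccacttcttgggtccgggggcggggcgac
In Rel a pair of overlapping matches lay 92 to 82 bases before the start. Tnfaip3 had a match 125 to 116 bases and another 12 to 3 bases before its start, and its AP-1 match lay at 136 to 130. The Nfkbia match lay 29 to 20 bases and the Nfkbie match 106 to 97 bases before the start. Each of the 3 Nfkb2 windows held a match, including GGGAATTCCC at 39 to 30 bases before the first of its starts. In Nfkbid the matches GGGACTTCCC and GGAATTCCCC lay in 1 of its 3 windows.

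The comparison of pltTGFβ_iTreg with purTGFβ_iTreg set cells given platelet lysate against cells given purified TGFβ1. The source of TGFβ, its dose, which is not given for the lysate, and anything else in the lysate cannot be told apart. With platelet lysate Rel, Nfkbia, Nfkbib, Nfkbid and Tnfaip3 were higher, by factors between 1.43 and 1.89, and none of the 9 genes was called lower (at an unadjusted limma p under 0.05, 8 were higher and 0 lower). Calls needed a limma p under 0.1 after Benjamini-Hochberg adjustment over all probe sets, and a log2 change larger than 0.5 in either direction, as in the series' design text. Thus 5 of 9 genes rose, while 4.11% of all genes were called in this comparison, 1.54% as higher and 2.57% as lower. Since the genes were chosen with earlier results known, such shares, here and against Tconv, describe them and are not a test. Of the 8 other probe sets of these genes 5 rose, where 3.25% of all probe sets were called. The median log2 change was 0.51 over the 9 genes and 0.011 over all genes. Arrays of the groups did not overlap for 8 of the 9, against 28.2% of all genes. The genes that rose were 1 subunit and 4 of the 5 brakes, while Rela, Relb, Nfkb2 and Nfkbie did not pass.

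Against Tconv the picture was mostly one of lower levels. In purTGFβ_iTreg 7 of the 9 genes fell, where 29.3% of all genes were called, 14.5% as higher and 14.9% as lower. In pltTGFβ_iTreg 6 of the 9 fell, where 28.5% of all genes were called, 13.9% as higher and 14.7% as lower. Of the other 8 probe sets 6 fell in purTGFβ_iTreg (25.8% of all probe sets were called) and 4 in pltTGFβ_iTreg (25.3%). Arrays did not overlap for 9 of the 9 genes in purTGFβ_iTreg against Tconv (62.7% of all genes) and for 8 in pltTGFβ_iTreg (59% of all genes). The median log2 change was -1.11 in purTGFβ_iTreg, where it was -0.17 over all genes, and -0.54 in pltTGFβ_iTreg, where it was -0.16 over all genes. These comparisons share the Tconv arrays, and both carry the difference in sex of the animals.

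**Figure D1:**
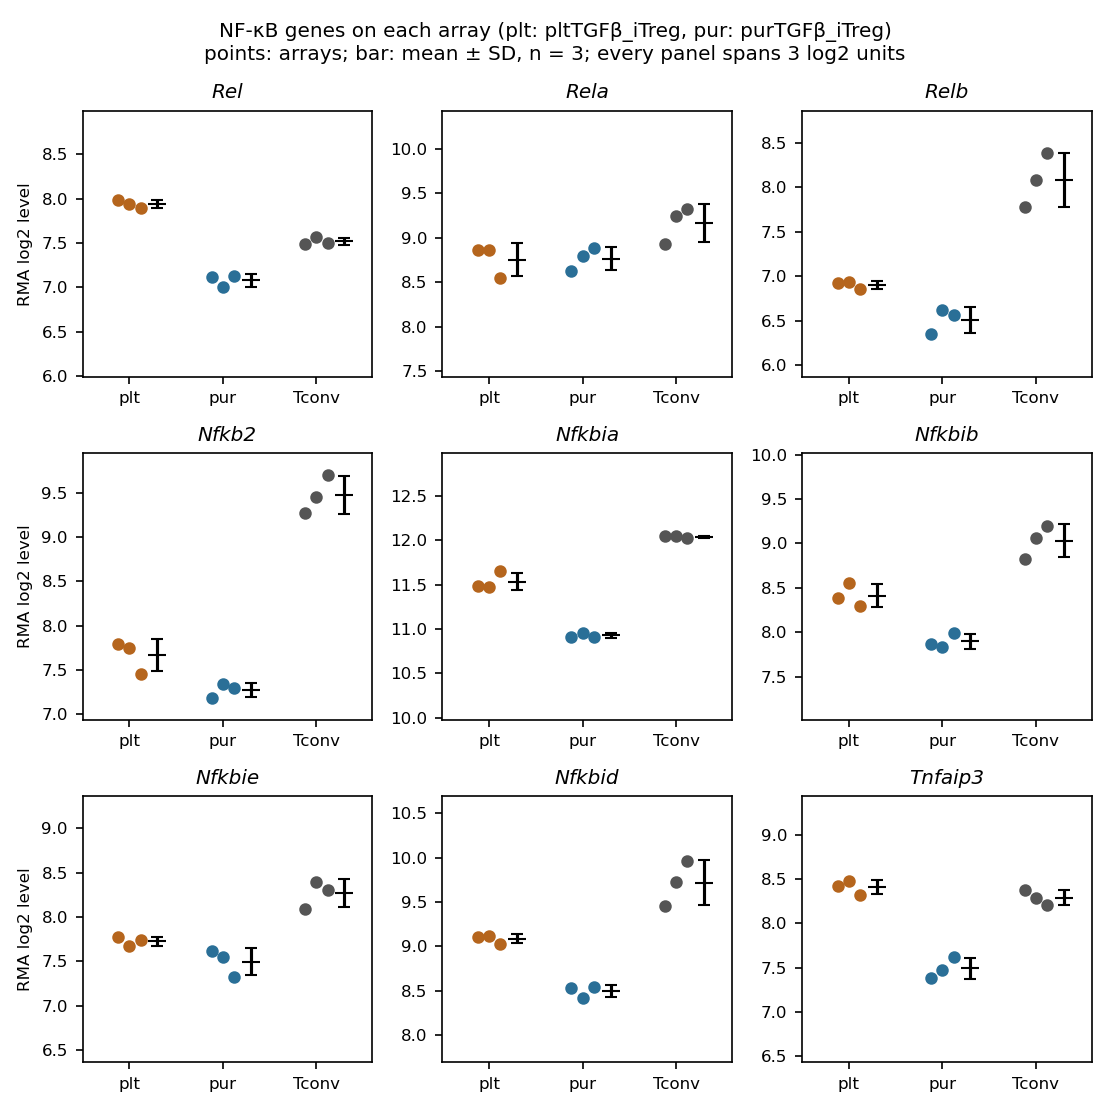
RMA log2 level of each gene on each array, with pltTGFβ_iTreg (plt), purTGFβ_iTreg (pur) and Tconv from left to right, and the mean ± SD of 3 arrays beside the points. In 6 panels the groups stand in the order purTGFβ_iTreg, pltTGFβ_iTreg, Tconv from low to high without overlap, while in the Rel panel pltTGFβ_iTreg stands highest.

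Rel encodes c-Rel, the subunit most tied to lymphocytes, and lies at chr11:23736847-23770969 (GRCm38.p6). Rel read 7.98, 7.94 and 7.89 on the pltTGFβ_iTreg arrays, 7.11, 7.00 and 7.12 on the purTGFβ_iTreg arrays, and 7.49, 7.57 and 7.49 on the Tconv arrays. Platelet-lysate cultures were thus highest, purified TGFβ lowest and Tconv between, with no overlap. Among all genes 0.352% showed that order without overlap, and Rel alone among the 9 did. The log2 change between the iTreg groups was 0.86 ± 0.08 (SE, limma adjusted p = 4.10e-05), a factor of 1.82. Against Tconv Rel changed by 0.42 ± 0.08 in pltTGFβ_iTreg (adjusted p = 7.61e-04) and by -0.44 ± 0.08 in purTGFβ_iTreg (adjusted p = 5.59e-04). Both were under the fold cutoff and were not called. Quantile normalization of the arrays moved these to 0.22 and -0.69, and the second then passed. The promoter printed above held κB letters close to the Rel start. Windows of Nfkb2 and Nfkbie, not called between the iTreg groups, held such letters too. Nfkbib was called there with none in its window. Any part of these letters in the changes was not tested.

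Rela encodes p65, the partner of p50 in the classical NF-κB pair, and was not called between the iTreg groups. Rela read 8.86, 8.86 and 8.54 in pltTGFβ_iTreg, 8.62, 8.79 and 8.88 in purTGFβ_iTreg, and 8.92, 9.24 and 9.33 in Tconv. The iTreg groups overlapped and every Tconv array stood above both. The log2 difference between the iTreg groups was -0.011 with a 95% interval of -0.29 to 0.27. Against Tconv the changes were -0.41 ± 0.13 in pltTGFβ_iTreg (SE, limma adjusted p = 0.0208) and -0.40 ± 0.13 in purTGFβ_iTreg (adjusted p = 0.0232), under the fold cutoff. Without Tconv replicate 1 both passed, at -0.53 in pltTGFβ_iTreg and -0.52 in purTGFβ_iTreg, as they did under quantile normalization (-0.54 and -0.53).

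Relb and Nfkb2 encode the subunits of the NIK route, RelB and p100/p52. They had the largest falls against Tconv among the main probe sets of the 9 genes. In purTGFβ_iTreg another Nfkbia probe set changed by -1.66, further than Relb. Relb read 6.92, 6.93 and 6.85 in pltTGFβ_iTreg, 6.34, 6.61 and 6.56 in purTGFβ_iTreg, and 7.78, 8.08 and 8.39 in Tconv. Every iTreg array was below every Tconv array. It fell by 1.18 ± 0.14 in pltTGFβ_iTreg (SE, limma adjusted p = 2.33e-05) and fell by 1.58 ± 0.14 in purTGFβ_iTreg (adjusted p = 1.95e-06), which is 2.27-fold and 2.98-fold lower. Nfkb2 read 7.79, 7.75 and 7.46 in pltTGFβ_iTreg, 7.19, 7.34 and 7.30 in purTGFβ_iTreg, and 9.27, 9.45 and 9.70 in Tconv. It was 3.50-fold lower than Tconv in pltTGFβ_iTreg (log2 change -1.81 ± 0.12) and 4.59-fold lower in purTGFβ_iTreg (-2.20 ± 0.12). A dimmer Nfkb2 probe set, which may cross-hybridise, changed by -0.73 in pltTGFβ_iTreg and -0.89 in purTGFβ_iTreg, both called, so the sizes differed between probe sets and the directions did not. Between the iTreg groups Relb differed by 0.40 (95% interval 0.10 to 0.69, adjusted p = 0.150) and Nfkb2 by 0.39 (interval 0.13 to 0.66, adjusted p = 0.105), and neither passed although their arrays did not overlap.

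The classical inhibitors bind NF-κB in the cytoplasm. Nfkbia, which encodes IκBα and is a standard transcript readout of NF-κB activity, read 11.48, 11.47 and 11.65 in pltTGFβ_iTreg, 10.91, 10.96 and 10.91 in purTGFβ_iTreg, and 12.04, 12.04 and 12.03 in Tconv. The groups stood apart in that order of middle, low and high. The log2 change between the iTreg groups was 0.61 ± 0.08 (SE, limma adjusted p = 6.38e-04). Against Tconv Nfkbia fell by 0.50 in pltTGFβ_iTreg (adjusted p = 2.38e-04) and fell by 1.11 in purTGFβ_iTreg (adjusted p = 3.57e-07). The first value lay just past the cutoff, and quantile normalization (-0.49), centred array medians (-0.45) or leaving out Tconv replicate 1 (-0.50), pltTGFβ_iTreg replicate 1 (-0.48) or replicate 2 (-0.47) ended the call. The other 4 Nfkbia probe sets bear on it. All 4 were called higher in pltTGFβ_iTreg than in purTGFβ_iTreg, by 0.58 to 0.78. Against Tconv 3 of them fell in pltTGFβ_iTreg, with changes of -0.98 to -0.87, and the dimmest was not called at -0.36. In purTGFβ_iTreg all 4 fell, with changes of -1.66 to -1.15.

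Nfkbib encodes IκBβ, a slower-turning relative of IκBα. Nfkbib read 8.39, 8.55 and 8.29 in pltTGFβ_iTreg, 7.87, 7.83 and 7.99 in purTGFβ_iTreg, and 8.83, 9.06 and 9.20 in Tconv. Its groups did not overlap. The log2 change between the iTreg groups was 0.51 ± 0.11 (limma adjusted p = 0.0160), just past the cutoff, and it did not pass without pltTGFβ_iTreg replicate 2 (0.44) or purTGFβ_iTreg replicate 2 (0.48). Against Tconv it fell by 0.62 in pltTGFβ_iTreg and fell by 1.13 in purTGFβ_iTreg. A second probe set read 3.96, 3.71 and 4.01 on average in pltTGFβ_iTreg, purTGFβ_iTreg and Tconv and passed in no comparison. Averaging it in ended the calls between the iTreg groups (0.38) and for pltTGFβ_iTreg against Tconv (-0.33).

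Nfkbie encodes IκBε, an inhibitor of Rel and Rela pairs. Nfkbie read 7.77, 7.67 and 7.74 in pltTGFβ_iTreg, 7.62, 7.55 and 7.32 in purTGFβ_iTreg, and 8.09, 8.40 and 8.31 in Tconv. The order was that of Nfkbia, with narrow gaps between the iTreg groups. The difference between the iTreg groups was 0.23 (95% interval 8.18e-04 to 0.46, limma adjusted p = 0.326) and did not pass. Nfkbie fell by 0.77 in purTGFβ_iTreg against Tconv, and fell by 0.54 in pltTGFβ_iTreg, a call that centred medians (-0.48) or leaving out Tconv replicate 2 (-0.47) ended. Its second probe set differed by 0.17 between the iTreg groups and by -0.49 in pltTGFβ_iTreg against Tconv, neither called, and fell by 0.66 in purTGFβ_iTreg.

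Nfkbid encodes IκBNS, an atypical nuclear IκB that works with c-Rel at the Foxp3 gene in mice. Nfkbid read 9.11, 9.12 and 9.03 in pltTGFβ_iTreg, 8.53, 8.42 and 8.54 in purTGFβ_iTreg, and 9.46, 9.72 and 9.97 in Tconv. Its groups did not overlap either. The log2 change between the iTreg groups was 0.59 ± 0.11 (SE, limma adjusted p = 0.0103), and against Tconv Nfkbid fell by 0.63 in pltTGFβ_iTreg and fell by 1.22 in purTGFβ_iTreg.

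Tnfaip3 encodes A20, a ubiquitin-editing enzyme that shuts signalling off upstream of IKK. Tnfaip3 read 8.42, 8.48 and 8.32 in pltTGFβ_iTreg, 7.39, 7.48 and 7.62 in purTGFβ_iTreg, and 8.38, 8.29 and 8.21 in Tconv. Platelet-lysate and Tconv arrays overlapped, and all purified-TGFβ arrays stood below both. The log2 change between the iTreg groups was 0.92 ± 0.09 (SE, limma adjusted p = 8.70e-05), a factor of 1.89. In purTGFβ_iTreg it fell by 0.80 against Tconv (adjusted p = 1.75e-05). In pltTGFβ_iTreg it differed from Tconv by 0.12 (95% interval -0.08 to 0.31), which quantile normalization turned to -0.051. The dimmer Tnfaip3 probe set rose by 0.67 between the iTreg groups and was not called against Tconv, at 0.25 in pltTGFβ_iTreg and -0.42 in purTGFβ_iTreg.

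**Figure D2:**
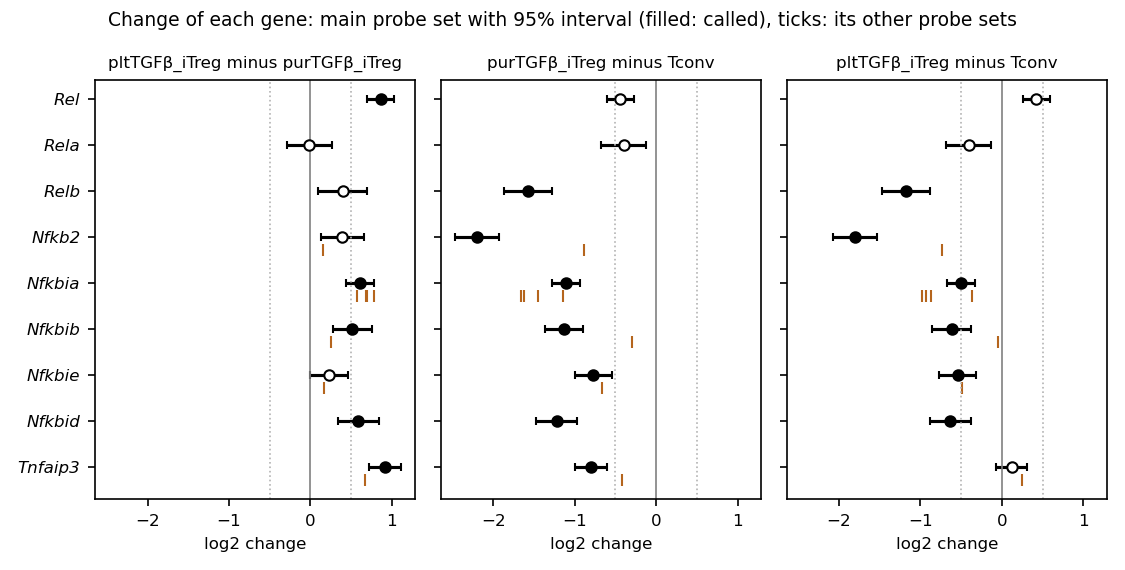
Log2 change of each gene in the 3 comparisons, with 95% intervals from limma, filled points for called genes, brown ticks for other probe sets of the gene and dotted lines at the fold cutoff of 0.5. Among the main probe sets Rel and Tnfaip3 stand farthest right between the iTreg groups, at 0.86 and 0.92, and Nfkb2 and Relb farthest left against Tconv.

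The genes differed in how far the platelet-lysate level lay from the purified-TGFβ level on the way to Tconv. On a scale where the purTGFβ_iTreg mean is 0% and the Tconv mean is 100%, pltTGFβ_iTreg stood at 17.9% for Nfkb2 and 25.1% for Relb. It stood at 29.8% for Nfkbie, 45.4% for Nfkbib, 48.2% for Nfkbid and 54.6% for Nfkbia. Tnfaip3 stood at 114.8% and Rel at 196.3%, past the Tconv mean. The scaling of the arrays bears on both: Rel stood at 131.5% under quantile normalization and 226.2% with centred array medians, and Tnfaip3 at 94.97%, short of Tconv, and 123.6%. Nfkbib, Nfkbid and Nfkbia thus lay between the NIK-route subunits and the pair of Rel and Tnfaip3. With each array left out in turn the values spanned 15.1% to 22.6% for Nfkb2, 21.1% to 27.8% for Relb, 49.5% to 57.5% for Nfkbia, 109.0% to 121.4% for Tnfaip3 and 190.4% to 208.0% for Rel. The ranges of Nfkbib, Nfkbid and Nfkbia overlapped, as did those of Relb, Nfkb2 and Nfkbie, so their order within each set is not fixed. Rela spanned -25.5% to 23.9%. The distance from purTGFβ_iTreg to Tconv was short for Rela and for Rel, with uncalled changes of -0.40 and -0.44. The percentages of both are therefore sensitive to small shifts. These positions describe the main probe sets only and were not tested. Other probe sets would place some genes elsewhere. Another bright Nfkbia probe set changed by 0.58 between the iTreg groups and by -1.45 in purTGFβ_iTreg against Tconv. The main Nfkbia probe set changed by 0.61 and -1.11. The dimmer Tnfaip3 probe set changed by 0.67 and -0.42 in these comparisons, and the main one by 0.92 and -0.80. The order purTGFβ_iTreg, pltTGFβ_iTreg, Tconv from low to high with no overlap held for 6 of the 9 genes (Relb, Nfkb2, Nfkbia, Nfkbib, Nfkbid and Nfkbie) and for 4.67% of all genes.

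**Figure D3:**
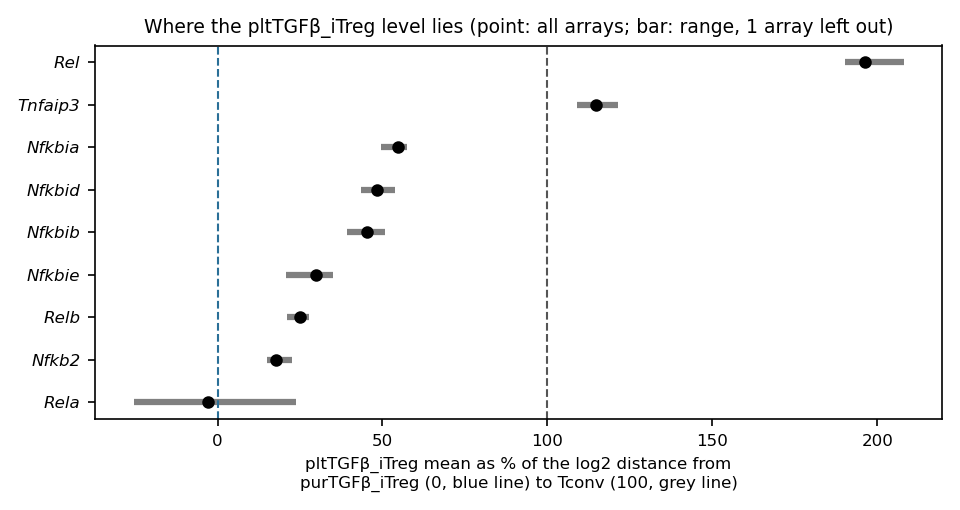
Mean of pltTGFβ_iTreg for each gene's main probe set as a percent of the log2 distance from purTGFβ_iTreg (0, dashed blue) to Tconv (100, dashed grey). Bars show the range when each array is left out in turn. Rel at 196.3% and Tnfaip3 at 114.8% lie past Tconv (131.5% and 94.97% under quantile normalization), Nfkbia, Nfkbid and Nfkbib lie near the middle, and Nfkb2 at 17.9% and Rela lie near purified TGFβ.

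Rel had the lowest adjusted p of the 9 genes between the iTreg groups, and the genes most like it were found by Pearson's r of log2 levels. Over all 9 arrays these were Gadd45g (0.993), Tnfsf4 (0.992), Atp8b4 (0.990), Gadd45b (0.988) and Xpo4 (0.987). Gadd45b and Gadd45g encode stress-response proteins and Tnfsf4 the ligand of the costimulator OX40. Gadd45g averaged 8.40 in pltTGFβ_iTreg, 6.54 in purTGFβ_iTreg and 7.60 in Tconv. Over the 6 iTreg arrays alone, Spin4, Epcam, Epsti1, Sla and Nufip1 were most like Rel (0.999 each). The arrays form separate groups, so these values mainly rank how alike the group means are.

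Other genes of the pathway came from 6 lists of 81 genes, of which 72 had a named probe set and 5 stood in 2 lists. These lists too were chosen with earlier results of these data known. Among all genes 1.54% were called higher and 2.57% lower between the iTreg groups. Against Tconv the shares were 13.9% higher and 14.7% lower in pltTGFβ_iTreg, and 14.5% higher and 14.9% lower in purTGFβ_iTreg. Of the 9 measured genes of the IKK complex and the T cell receptor route none was called between pltTGFβ_iTreg and purTGFβ_iTreg, with a median log2 change of 0.054. At an unadjusted limma p under 0.05, 2 were higher and 1 lower. The closest to a call were Map3k7, which encodes the kinase TAK1, at -0.38 (limma adjusted p = 0.0106) and Malt1, a paracaspase of the receptor route, at 0.27. Against Tconv 4 of the 9 rose in pltTGFβ_iTreg and none fell, and 3 rose and 1 fell in purTGFβ_iTreg. In pltTGFβ_iTreg and then purTGFβ_iTreg, Tab3, which encodes an adaptor of TAK1, rose by 2.37 and 2.19, Map3k7 by 1.54 and 1.92 and Tab2, another such adaptor, by 1.07 and 1.11. Malt1 rose by 0.75 in pltTGFβ_iTreg and changed by 0.48 in purTGFβ_iTreg without being called.

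In the list of TRAF adaptors, cIAP ligases and NIK, 2 of 8 genes fell between the iTreg groups and none rose. Among all genes 2.57% were called lower there and 1.54% higher. Traf6 and Traf5 were lower in pltTGFβ_iTreg than in purTGFβ_iTreg, with changes of -0.61 (limma adjusted p = 5.10e-04) and -0.60 (adjusted p = 9.09e-04). Averaging each gene's probe sets left 0 calls in this list. Against Tconv 2 rose and 3 fell in pltTGFβ_iTreg, and 2 rose and 2 fell in purTGFβ_iTreg. Of all genes 28.5% and 29.3% were called in these 2 comparisons. Traf6, an adaptor of IL1 family receptors, rose by 1.34 in pltTGFβ_iTreg and 1.95 in purTGFβ_iTreg, and Birc2, which encodes the ligase cIAP1, by 0.96 and 0.87 there. Traf1, a known NF-κB target, fell by 0.91 in pltTGFβ_iTreg and fell by 1.32 in purTGFβ_iTreg. Receptors that signal to NF-κB had 3 rises and 1 fall among 13 between the iTreg groups. Tnfrsf9, the costimulator 4-1BB, rose by 1.88 and averaged 10.33 in pltTGFβ_iTreg, 8.46 in purTGFβ_iTreg and 9.79 in Tconv. Tnfrsf18 (GITR) rose by 0.71 and Tnfrsf4 (OX40) by 0.68, and both stood below Tconv in both iTreg groups. Cd40, a receptor best known on antigen-presenting cells, went the other way at -2.09, with means of 5.64 in pltTGFβ_iTreg, 7.73 in purTGFβ_iTreg and 5.04 in Tconv. Against Tconv 4 receptors rose and 3 fell in pltTGFβ_iTreg, and 2 rose and 4 fell in purTGFβ_iTreg.

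Between the iTreg groups the partners of A20 and other brakes had no call in the direction of Tnfaip3. There none of 13 rose and 2 fell, with a median of -0.14, where 1.54% of all genes were called higher and 2.57% lower. The 2 were N4bp1 at -0.61 and Nlrc3 at -0.59 (limma adjusted p = 4.38e-04 and 0.0154). Averaging probe sets left 0 of these calls and leaving out purTGFβ_iTreg replicate 1 left 1. Against Tconv 6 rose and 3 fell in pltTGFβ_iTreg, and 6 rose and 2 fell in purTGFβ_iTreg, where Tnfaip3 fell too. Of all genes 28.5% and 29.3% were called in these 2 comparisons. Tax1bp1, an adaptor of A20, rose by 1.56 in pltTGFβ_iTreg and 1.99 in purTGFβ_iTreg, N4bp1 by 1.74 and 2.35, and Nlrc3 by 2.24 and 2.83. Cyld, a deubiquitinase that opposes the pathway, rose by 1.46 in pltTGFβ_iTreg and 1.60 in purTGFβ_iTreg. Of 6 other IκB-like or related genes none was called between the iTreg groups, and Nfkbiz, which encodes IκBζ, differed by 0.19 (adjusted p = 0.563). None of the 6 had an unadjusted limma p under 0.05 there. Against Tconv 2 rose and 1 fell in each iTreg group, among them Nkrf, a repressor of NF-κB targets, by 1.34 in pltTGFβ_iTreg and 1.19 in purTGFβ_iTreg, and Tbk1, an IKK-related kinase, by 1.00 in each.

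Genes known as NF-κB targets rose in 7 of 28 cases between the iTreg groups and fell in none, with a median log2 change of 0.20. Among all genes 1.54% were called higher there and 2.57% lower. The list was chosen with earlier results of these data known, so its share is a description and not a test. Il2, the T cell growth factor, led at 4.16 (limma adjusted p = 1.31e-07), with means of 8.30 in pltTGFβ_iTreg, 4.14 in purTGFβ_iTreg and 7.77 in Tconv. The purTGFβ_iTreg mean lay near that of Xist in the same arrays (3.61), in the low range that RMA compresses, so the value may understate the difference. Cd83 rose by 1.69, the cytokine gene Csf2 by 1.47 and Gadd45b by 1.41. Against Tconv the list split, with 8 rises and 9 falls in pltTGFβ_iTreg and 6 rises and 12 falls in purTGFβ_iTreg. Of all genes 28.5% and 29.3% were called in these 2 comparisons. Cd83, an activation marker, fell by 2.40 in pltTGFβ_iTreg and fell by 4.09 in purTGFβ_iTreg. In purTGFβ_iTreg Il2 fell by 3.63, Csf2 fell by 3.08 and Ier3 fell by 2.81. Their purTGFβ_iTreg means were low, at 4.14, 4.07 and 4.61, so these sizes may be understated too and are not exact. In pltTGFβ_iTreg Csf2 fell by 1.62 and Ier3 fell by 1.98, while Il2 rose by 0.54. Ccl20 rose by 4.38, Lta by 1.85 and Il2ra by 1.73 in pltTGFβ_iTreg. These genes rose in purTGFβ_iTreg too, by 3.58, 1.65 and 1.68. Many of these targets also answer to other factors, so the list does not measure NF-κB alone.

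**Figure D4:**
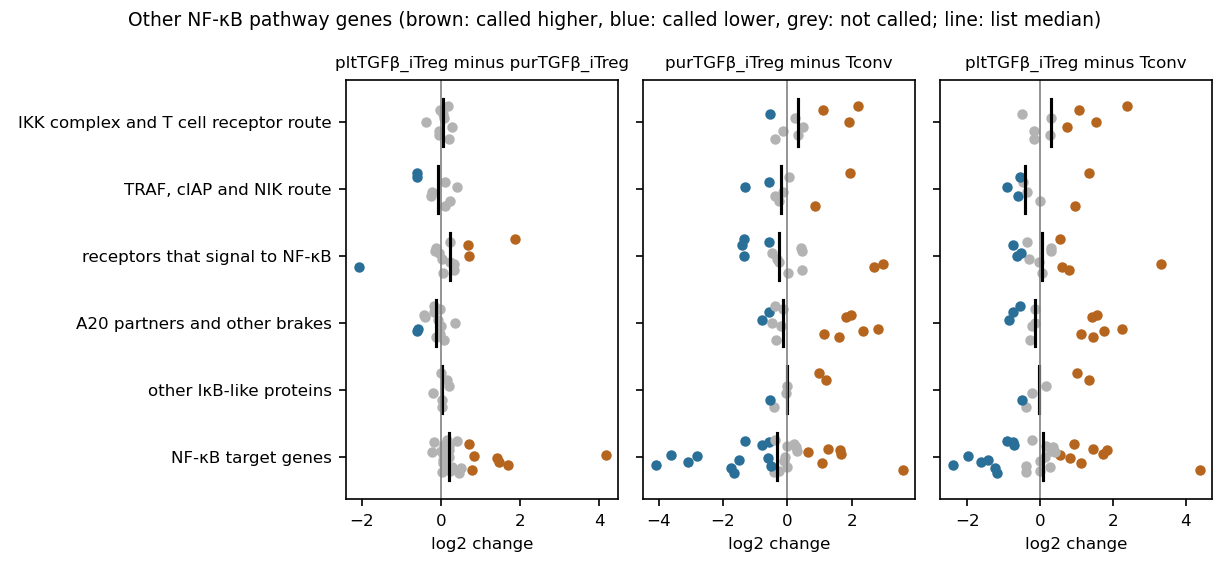
Log2 change of each measured gene of the 6 pathway lists in the 3 comparisons, coloured by call, with a black line at each list's median. Between the iTreg groups the target genes are called only as higher (7 of 28) and the IKK list has no call. Among all genes 1.54% were called higher there. Against Tconv every list but the IKK list in pltTGFβ_iTreg has calls in both directions. Of all genes 28.5% were called in pltTGFβ_iTreg and 29.3% in purTGFβ_iTreg against Tconv.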

How the data were processed

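RNA of 9 CD4 T cell samples was hybridised to Affymetrix whole-genome mouse arrays. The authors deposited log2 expression values made with RMA in Expression Console, per the series' design text, and the submitters' processing notes name Partek. RMA removes background, normalizes between arrays and gives each probe set a single value, which compresses low readings. The deposited columns do not share a distribution: array medians ran from 4.46 to 4.50 in pltTGFβ_iTreg, 4.47 to 4.49 in purTGFβ_iTreg and 4.52 to 4.56 in Tconv, and upper quartiles from 6.86 to 6.91, 6.88 to 6.95 and 6.59 to 6.70. No detection calls were used, and the number of arrays limits precision.

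Without 64 controls, 45037 of the 45101 probe sets were tested. Platform annotation gave 34945 of them a single symbol, 932 several and 9160 none. A probe set with a name ending in _x_at, which may cross-hybridise, stood for a gene only where no other kind was listed. Other endings were not set aside, among them the _s_at of the main Nfkbib and Nfkbie probe sets.

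One limma fit (limma 3.58.1, R 4.3.3) over all 9 arrays, with group means and moderated variances, gave every comparison, two-sided. With 3 arrays a side an exact test cannot go below p = 0.1, so none was run. Python 3.11.15, pandas 2.3.3 and matplotlib 3.10.9 made tables and plots. The fit was tested on simulated data. The members and lists were chosen with earlier results of these data known. Genes named are all members, up to 4 per list and comparison with the lowest adjusted p, the 5 most like the leading member, and Xist, Eif2s3y, Foxp3 and Tgfb1. Markers were named to describe the samples.

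The alternatives tried were: quantile normalization; centred medians; no probe sets from the dimmest 40%; trended robust variances; plain ANOVA contrasts; array weights; pairwise fits; replicate number as block; averaged probe sets per gene; 3 other cutoffs; each array left out.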

Additional observations from a re-analysis of the deposited data

How the results depend on the processing

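Over the 21 alternatives the number of the 9 genes called stayed within 1.5 times of the value reported, 5 between the iTreg groups, 7 for purTGFβ_iTreg and 6 for pltTGFβ_iTreg against Tconv, except under 1 setting. With a log2 change above 1 and an adjusted p under 0.05, 0 were called between the iTreg groups (limma; 5 at an adjusted p under 0.1 with no fold cutoff) and 2 for pltTGFβ_iTreg against Tconv. Centred medians left 4 of those 6. Over all genes that cutoff left 169, 2033 and 1839 calls in these comparisons, and no fold cutoff left 1768, 11542 and 10996, against 748, 5339 and 5194. Leaving out each array in turn gave 4 to 5, 7 to 8 and 5 to 6 genes called. With the replicate block the counts were 5, 7 and 6, as without it. Deviations of same-numbered arrays correlated at 0.092 to 0.26 between the iTreg groups and at -0.12 to 0.085 against Tconv, so the numbers were not taken as pairs. The Rela difference between the iTreg groups (-0.011) changed sign with array weights (0.014) and spanned -0.083 to 0.095 with each array left out. Tnfaip3 in pltTGFβ_iTreg against Tconv was 0.12 as deposited and -0.051 under quantile normalization. The causes were not tested. All-gene medians were -0.17 in purTGFβ_iTreg and -0.16 in pltTGFβ_iTreg against Tconv as deposited, and -0.11 and -0.10 with array medians centred. RMA compresses readings near background, which limits the dim second probe sets of Nfkbib and Tnfaip3 and the changes of Il2 and Csf2, low in purTGFβ_iTreg.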
